A study of Homo sapiens with 4 samples.

Results

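The SLC25 family are the carriers that move metabolites, nucleotides, cofactors and ions across the inner mitochondrial membrane. Each carrier is built from repeated membrane-spanning units and is made in the cytosol, then inserted into the inner membrane by a dedicated import route. Their substrates tie mitochondrial ATP synthesis, amino acid use, heme and iron-sulfur cluster production and redox balance to the rest of the cell. A few family members work elsewhere: SLC25A17 is a peroxisomal protein and SLC25A46 lies in the outer mitochondrial membrane, so mitochondrial inner membrane carrier does not describe these genes.

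The members were protein-coding genes with a symbol starting SLC25A on the array, each read by its brightest probe. This gave 44 genes with 64 probes, of 47323 probes in the table. Probe signal above the background limit of 28.1 signal units on at least 2 of the 4 arrays was required for testing, which left 30 carriers among 10466 genes. The other 14 carriers are described at the end. SLC25A6 and SLC25A14 were not analysed here.

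The carriers were read in HCT116 cells, an established epithelial line from a colorectal carcinoma, whose RNA was hybridised to Illumina bead arrays. Las1L siRNA #1 and Las1L siRNA #2 had 1 array each, and control siRNA had 2, replicates 1 and 2. Every array had 40 nM siRNA delivered with a lipid reagent for 72 h. LAS1L is a nucleolar protein needed to process ribosomal RNA precursors of the large subunit. Nucleolar stress in cancer cells is the study's stated subject. No label says that the control arrays are separate cultures, so their spread may be technical, and p-values measure only the spread between these 4 arrays. The spread between the Las1L arrays also holds the difference between the siRNAs. In these bulk samples, fewer cells of a type and less RNA per cell cannot be told apart.

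The siRNAs define the groups and are shown for that reason. Each is given as the labels write it, 5′ to 3′, without its dTdT overhang. The labels do not say which strand it is.

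Las1L siRNA #1: cugauacgcuguaagcucu
Las1L siRNA #2: cauuuauacccagagugga
Control siRNA: gaucauacgugcgaucaga

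The target was lower on both Las1L arrays. LAS1L had signals of 211.5 with siRNA #1 and 158.1 with siRNA #2, against 770 and 717.5 units with control siRNA. Its log2 fold change was -2.02 (SE 0.14, adjusted p = 1.0e-08 in limma with an intensity trend). The cell type was checked by markers: EPCAM, KRT8, KRT18, KRT19, CDH1 and CDX2 were above the background limit, and of these CDH1 rose (log2 fold change 0.43, limma adjusted p = 0.0194 with the trend and 0.156 without it), while CDH17, CDX1 and VIL1 did not pass the signal filter. Of the markers of other cell types, PECAM1, PTPRC and CD3E were under the limit on every array. VIM and CD68 were above it on all 4 arrays, CD14 and COL1A1 on 3, and COL1A2 on 2. VIM had 303.1 and 244.2 units with Las1L siRNA #1 and #2, against 224.2 and 242 with control siRNA. The summed signal of the 5 that were tested was 589.9 and 555.1 units with Las1L siRNA, against 477.8 and 585.8 with control siRNA. In the limma trend fit 0 of the 5 passed, and 1, CD14, had an unadjusted p under 0.05. CD14 had 23.9 and 31.2 units with Las1L siRNA #1 and #2, against 39.7 and 63.1 with control siRNA. Its log2 fold change was -0.87 (adjusted p = 0.112, limma trend fit), with signals near or under the limit.

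With Las1L siRNA some carriers were lower and others higher, with no common direction. SLC25A44, which carries branched-chain amino acids, SLC25A39, which brings glutathione into mitochondria, the iron importer SLC25A28, the pyrimidine nucleotide carrier SLC25A36 and the dicarboxylate carrier SLC25A10 fell. SLC25A42, a coenzyme A carrier, SLC25A24, a calcium-regulated ATP-Mg/phosphate carrier, the glutamate carrier SLC25A22 and SLC25A43, whose substrate is not settled, rose. The ADP/ATP carriers and the phosphate carrier, which serve ATP synthesis directly, did not pass the test, although SLC25A4 passed under one stricter signal filter. All changes that passed were under 2-fold.

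Rose and fell stand here for an adjusted p at or under 0.05 in limma with an intensity trend, adjusted over all 10466 genes. By that rule 4 of the 30 tested carriers rose and 5 fell, 30% in all. Among all tested genes 11.3% rose and 10.8% fell, 22.1% together, so the carriers' share is read against that figure and not as a family response. The median log2 fold change was 0.10 over the 30 carriers and 0.00 over all tested genes. The groups did not overlap for 18 carriers (60%), with both Las1L arrays above both controls for 10 and below both for 8. The 10 include SLC25A45, whose controls were both under the background limit. Over all tested genes that share was 59.7%, with 29.9% above and 29.8% below, so it is not particular to carriers.

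**Figure D1:**
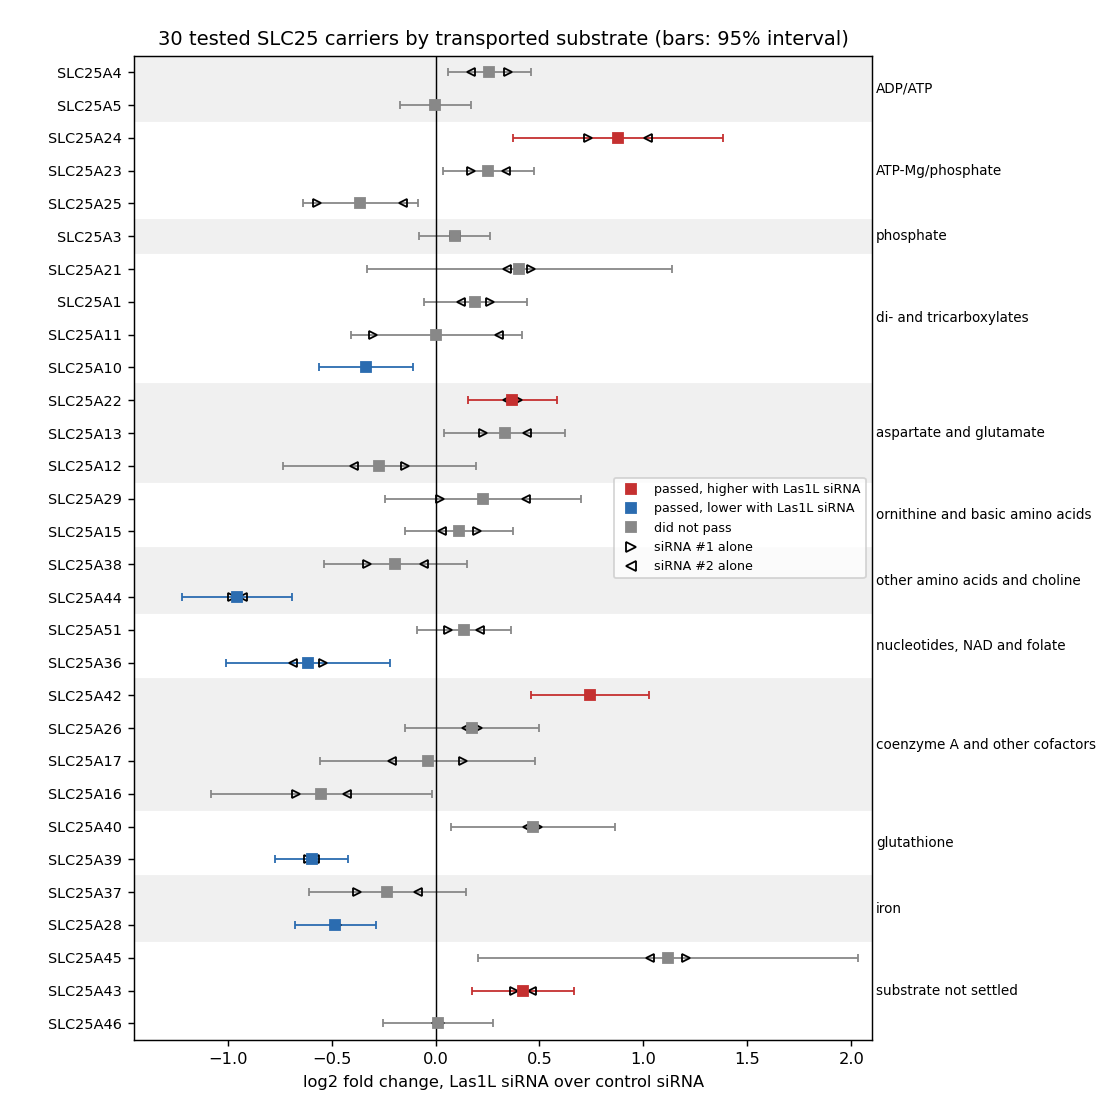
Log2 fold change of each of the 30 tested carriers, Las1L siRNA over control siRNA, grouped by substrate, with 95% intervals from limma with an intensity trend. Open triangles give each siRNA alone against the mean of the same 2 controls; red and blue squares are the 4 carriers that rose and the 5 that fell, and they are spread over 9 of the 12 substrate groups.

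The largest fall was that of SLC25A44 (probe ILMN_1810514), among the carriers that passed. Its signal was 248.1 with siRNA #1 and 257.3 with siRNA #2, against 521.9 and 459.6 units with control siRNA. Both Las1L arrays lay near the same level and far below both controls. The log2 fold change was -0.95 (SE 0.13, adjusted p = 2.4e-05, limma with an intensity trend), a 1.94-fold lower signal. It was the only carrier that also passed limma without the trend (adjusted p = 0.0377). SLC25A38, a glycine carrier needed for heme synthesis, is the other tested carrier of this amino acid group. It did not pass (log2 fold change -0.19), and its groups overlapped.

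SLC25A39 and SLC25A40 are paralogs of the mitochondrial glutathione pathway. SLC25A39 had 3380.6 and 3461.4 units with Las1L siRNA #1 and #2, against 5118.1 and 5227 with control siRNA. The distance between the groups was many times the distance within either. It fell 1.51-fold (log2 fold change -0.60, SE 0.08, adjusted p = 5.0e-05 in the limma trend fit). SLC25A40 had 150.4 and 144.9 units with Las1L siRNA, against 94.6 and 120.4 with control siRNA. Both Las1L values were above both controls, with a log2 fold change of 0.47, and it did not pass (adjusted p = 0.0829, limma trend fit). Whether the paralogs differ from each other was not tested.

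The mitoferrins import iron for heme and iron-sulfur clusters. SLC25A28, mitoferrin-2, which most tissues use, had 1554 and 1535.6 units with Las1L siRNA #1 and #2, against 2056.2 and 2262.4 with control siRNA. It fell 1.40-fold (log2 fold change -0.48, SE 0.09, adjusted p = 9.5e-04 in the limma trend fit), and its groups did not overlap. SLC25A37, mitoferrin-1, known for its role in red cell precursors, had 142 and 174.4 units with Las1L siRNA, against 157.8 and 216.4 with control siRNA. Its groups overlapped and it did not pass (log2 fold change -0.23, 95% interval ± 0.38).

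**Figure D2:**
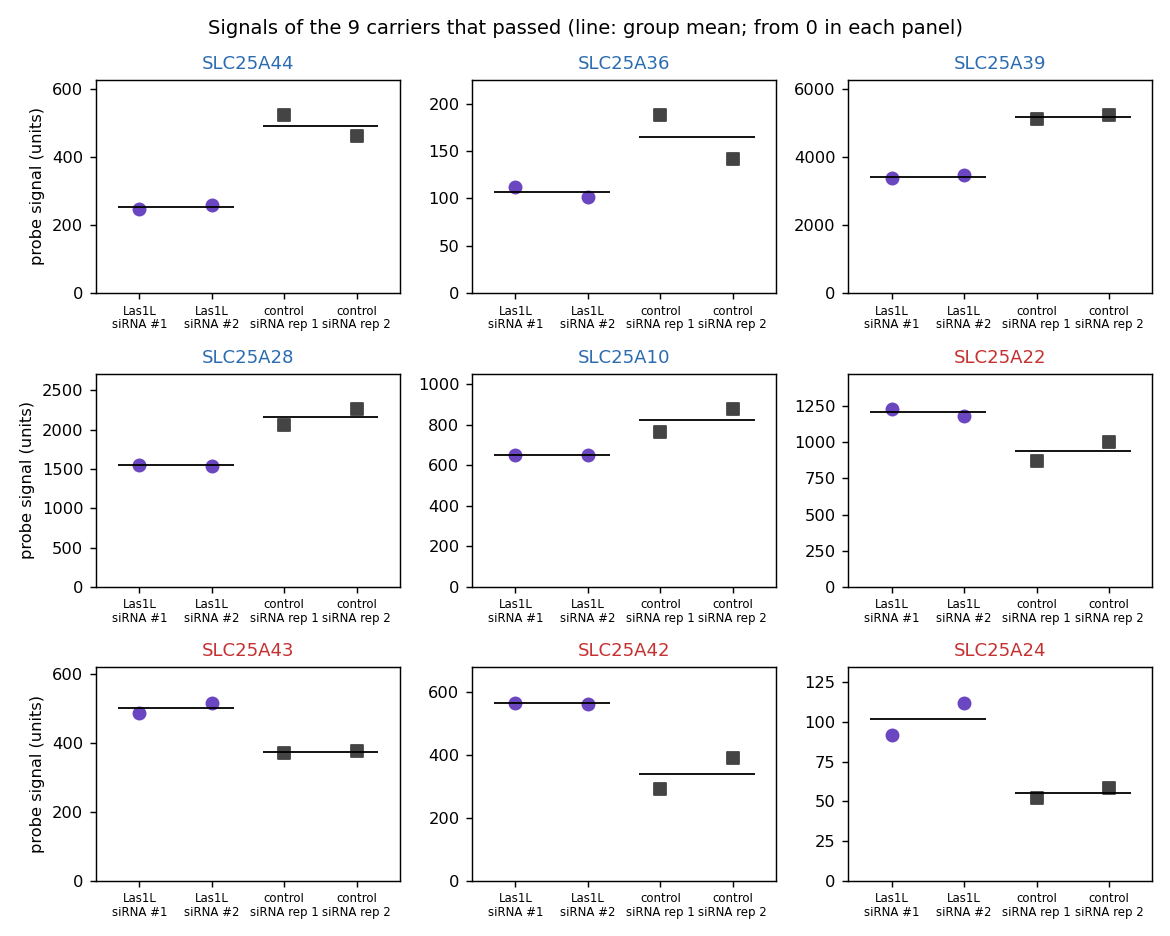
Signal of the 9 carriers that passed, in signal units from 0, with Las1L siRNA #1 and #2 at the left (circles), control replicates 1 and 2 at the right (squares) and group means as lines. In each panel the Las1L circles lie on one side of both control squares; SLC25A44 has the lowest log2 fold change and SLC25A24 the highest.

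The carriers of nucleotides and cofactors moved both ways. SLC25A36 had 112.4 and 101.5 units with Las1L siRNA #1 and #2, against 188 and 142 with control siRNA. It fell 1.53-fold (log2 fold change -0.61, SE 0.19, adjusted p = 0.0245, limma trend fit), and the control arrays differed from each other more than the Las1L arrays did. Without control replicate 1, the higher of these, the log2 fold change was -0.41 and its limma adjusted p was 0.263. SLC25A51, the NAD carrier, did not pass (log2 fold change 0.14). A second SLC25A51 probe, far dimmer and above the limit on 2 arrays, had 25.1 and 14.9 units with Las1L siRNA #1 and #2, against 46.8 and 33.1 with control siRNA. Both Las1L signals were under the limit, so no fold is given for that probe.

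SLC25A42 had 565 and 561.3 units with Las1L siRNA #1 and #2, against 290.1 and 390.8 with control siRNA. The Las1L arrays were almost equal while the controls stood apart from each other. It rose 1.67-fold (log2 fold change 0.74, SE 0.14, adjusted p = 5.8e-04, limma trend fit). SLC25A16, placed in this group although its substrate is debated, had 51.6 and 61.3 units with Las1L siRNA, against 88.4 and 76.6 with control siRNA. Its groups did not overlap, yet it did not pass (log2 fold change -0.55, adjusted p = 0.132, limma trend fit). SLC25A26, the S-adenosylmethionine carrier, and the peroxisomal SLC25A17 had log2 fold changes of 0.18 and -0.04 with overlapping groups.

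The promoters of SLC25A44, SLC25A28 and SLC25A42, carriers that passed, are printed as examples. Each window runs from 250 bases before to 50 after the gene start, from RefSeq on GRCh38.p14. Capitals mark the letters CCAAT on either strand (a CCAAT box). All of the printed windows hold the box. Those of SLC25A39 and SLC25A43, which also passed, hold none and are not printed.

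SLC25A44 (GRCh38.p14, chr1:156193854-156194153, plus strand): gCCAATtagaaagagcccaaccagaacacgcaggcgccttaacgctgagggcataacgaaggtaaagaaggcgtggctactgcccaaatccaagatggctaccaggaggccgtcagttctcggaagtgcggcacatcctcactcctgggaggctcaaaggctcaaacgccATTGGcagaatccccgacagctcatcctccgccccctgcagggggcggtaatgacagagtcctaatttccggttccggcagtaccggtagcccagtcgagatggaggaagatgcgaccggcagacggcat
SLC25A28 (GRCh38.p14, chr10:99620390-99620689, minus strand): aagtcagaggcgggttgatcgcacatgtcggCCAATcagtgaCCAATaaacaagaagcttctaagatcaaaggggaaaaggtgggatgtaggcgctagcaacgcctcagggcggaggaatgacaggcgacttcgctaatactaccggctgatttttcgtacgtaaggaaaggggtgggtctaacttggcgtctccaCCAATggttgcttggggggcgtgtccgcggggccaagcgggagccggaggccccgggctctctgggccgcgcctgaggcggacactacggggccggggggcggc
SLC25A42 (GRCh38.p14, chr19:19063744-19064043, plus strand): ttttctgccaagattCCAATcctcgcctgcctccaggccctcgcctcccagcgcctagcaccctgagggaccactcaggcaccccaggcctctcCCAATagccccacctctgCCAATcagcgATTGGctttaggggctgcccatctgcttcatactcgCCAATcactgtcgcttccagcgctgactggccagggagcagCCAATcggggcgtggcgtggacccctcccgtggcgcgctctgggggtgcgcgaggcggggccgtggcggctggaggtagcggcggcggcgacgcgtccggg

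SLC25A42, which rose, held 6 CCAAT boxes in its window. SLC25A44 and SLC25A28, which fell, held 2 and 3, and SLC25A39, which fell too, held 0. Over all carriers that fell, 4 of 5 promoter windows, from 5 genes, had at least 1 CCAAT box, and over those that rose, 2 of 8 windows from 4 genes. SLC25A22 and SLC25A24 each gave more than 1 of these 8 windows, so shares by window are not shares by gene. By gene, SLC25A22 and SLC25A42 had a CCAAT box in some window, and SLC25A24 and SLC25A43 had none. All RefSeq windows of this length held the box in 34.6% of cases, and those of tested carriers in 45.9% of 37 windows from 28 genes. The letters GGGCGG (a GC box, either strand) were in 5 of 5 windows of carriers that fell and 4 of 8 of those that rose. They were in 45% of all windows and in 58.3% of the 24 windows of tested carriers that did not pass. The E-box CACGTG was in 1 of 5 and 1 of 8, against 7.26% of all windows and 20.8% of those of carriers that did not pass. The ETS core CCGGAAG was in 0 of 5 and 2 of 8, against 10.3% and 25% in the same 2 sets. The TGATGNAA letters of an amino acid response element were in 0 of 5 and 0 of 8, against 3.62% and 4.17%. Both strands were searched for every motif, and the windows of 1 gene can overlap. These matches describe letters in a window and not bound sites.

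Carriers of organic acids and amino acids came next. SLC25A10, which exchanges malate and succinate for phosphate, had 652.6 and 650.6 units with Las1L siRNA #1 and #2, against 767.1 and 878.3 with control siRNA. It fell 1.26-fold (log2 fold change -0.33, SE 0.11, adjusted p = 0.0321, limma trend fit). Without control replicate 2 the log2 fold change was -0.24 and its limma adjusted p was 0.194. The citrate carrier SLC25A1, the oxoglutarate carrier SLC25A11 and SLC25A21, which carries oxoadipate, had log2 fold changes of 0.19, 0.00 and 0.40, with overlapping groups. SLC25A11 had 150.6 units with siRNA #1 and 229 with siRNA #2, against 218.3 and 157.3 with control siRNA. Its middle value hides opposite directions, with log2 differences from the control mean of -0.30 for siRNA #1 and 0.31 for siRNA #2. The Las1L arrays lay further apart than the controls.

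SLC25A22 had 1230.2 and 1185.5 units with Las1L siRNA #1 and #2, against 871.6 and 1003.5 with control siRNA. It rose 1.29-fold (log2 fold change 0.37, SE 0.10, adjusted p = 0.0138, limma trend fit). SLC25A13, known as citrin, and SLC25A12, known as aralar, are the aspartate/glutamate carriers of the malate-aspartate shuttle. SLC25A13 had 362.4 and 419.7 units with Las1L siRNA, against 347.6 and 275.8 with control siRNA. SLC25A12 had 86.7 and 73.2 units with Las1L siRNA, against 102.9 and 89.7 with control siRNA. The groups overlapped in neither gene, the log2 fold changes were 0.33 and -0.27, and neither passed. The ornithine carrier SLC25A15 and the basic amino acid carrier SLC25A29 had log2 fold changes of 0.11 and 0.23 with overlapping groups.

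The ATP-Mg/phosphate carriers adjust the adenine nucleotide content of mitochondria in response to calcium. SLC25A24 had 92 and 112.1 units with Las1L siRNA #1 and #2, against 52.1 and 58.6 with control siRNA. It rose 1.84-fold (log2 fold change 0.88, SE 0.24, adjusted p = 0.0129, limma trend fit), the largest rise among the carriers that passed, at a signal only a few times the background limit. SLC25A23 had 1708.4 and 1915.4 units with Las1L siRNA, against 1381.4 and 1665.4 with control siRNA, and did not pass (log2 fold change 0.25, adjusted p = 0.0892). SLC25A25 had 370.3 and 493.7 units with Las1L siRNA, against 533.8 and 565.7 with control siRNA. It was lower on both Las1L arrays, mostly with siRNA #1, and did not pass (log2 fold change -0.36, adjusted p = 0.0559, limma trend fit). It passed with an offset of 64, with robust eBayes and when signal above the limit was required on all 4 arrays.

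The ADP/ATP carriers exchange mitochondrial ATP for cytosolic ADP. SLC25A5, the form of dividing cells, had 16320 and 16228.1 units with Las1L siRNA #1 and #2, against 16514.9 and 16061.4 with control siRNA. Both Las1L values lay between the controls, with a log2 fold change of -0.001 and a 95% interval of ± 0.17. SLC25A4, the form of heart and muscle, had 2075 and 1833.7 units with Las1L siRNA, against 1665.4 and 1597.4 with control siRNA. Its groups did not overlap, and it did not pass (log2 fold change 0.26, 95% interval ± 0.20, adjusted p = 0.0584, limma trend fit). It passed when signal above the limit was required on all 4 arrays (limma adjusted p = 0.0451). The germline form SLC25A31 was under the background limit on every array, and SLC25A6, also an ADP/ATP carrier, was not analysed. These genes are close copies with pseudogenes, so their probes may share target RNA.

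SLC25A3, the phosphate carrier, had 11544.1 and 11607 units with Las1L siRNA #1 and #2, against 10992 and 10723.1 with control siRNA. The difference was small though the groups did not overlap (log2 fold change 0.09, 95% interval ± 0.17). Its other 2 tested probes lay in the opposite direction, at log2 fold changes of -0.04 and -0.41. For 8 carriers more than 1 probe was tested, and the direction also differed between probes in SLC25A15, SLC25A26 and SLC25A51. The second SLC25A51 probe was above the limit only on the control arrays, so its direction is less certain. Of the 9 carriers that passed, SLC25A43 was the only one with a second tested probe, at a log2 fold change of 0.16.

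**Figure D3:**
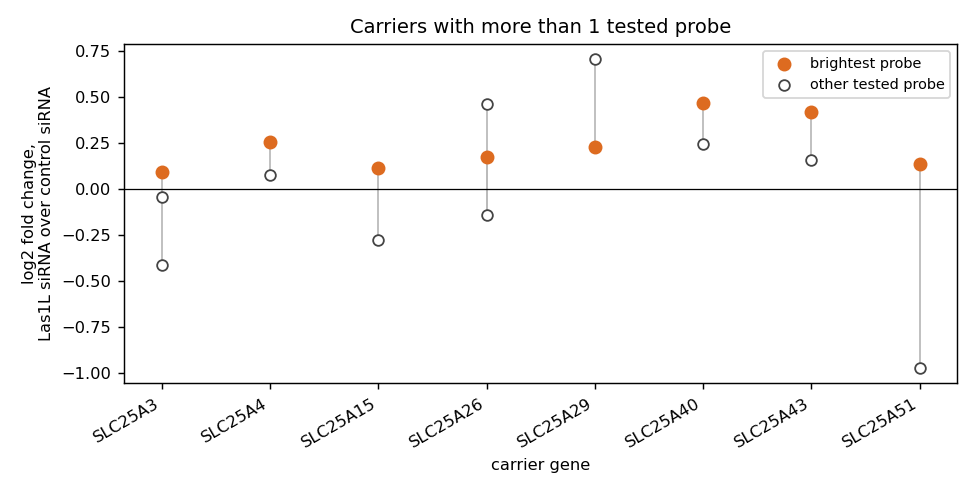
Log2 fold change, Las1L siRNA over control siRNA, of each tested probe of the 8 carriers with more than 1, with the brightest probe filled. Lines that cross 0, in SLC25A3, SLC25A15, SLC25A26 and SLC25A51, join probes of opposite direction. The second SLC25A51 probe rests on Las1L signals under the background limit, so its place is not a measured size.

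Carriers whose substrate is not settled included 1 that passed. SLC25A43 had 485.3 and 515.2 units with Las1L siRNA #1 and #2, against 370.3 and 376.9 with control siRNA. It rose 1.34-fold (log2 fold change 0.42, SE 0.12, adjusted p = 0.0140, limma trend fit), and with the mean over its probes it did not pass (log2 fold change 0.29, limma adjusted p = 0.266). SLC25A45 had 45.8 and 40.6 units with Las1L siRNA, against 12.9 and 24.6 with control siRNA. Both controls were under the background limit, so SLC25A45 entered the test only through the Las1L arrays, where it was high. With the controls set at that limit the signal was at least 1.54-fold higher, a bound that takes the Las1L signals as exact. SLC25A45 did not pass (adjusted p = 0.0743, limma trend fit). SLC25A46, a regulator of mitochondrial shape, had 329.8 and 325 units with Las1L siRNA, against 331.2 and 318.5 with control siRNA (log2 fold change 0.01, 95% interval ± 0.26).

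**Figure D4:**
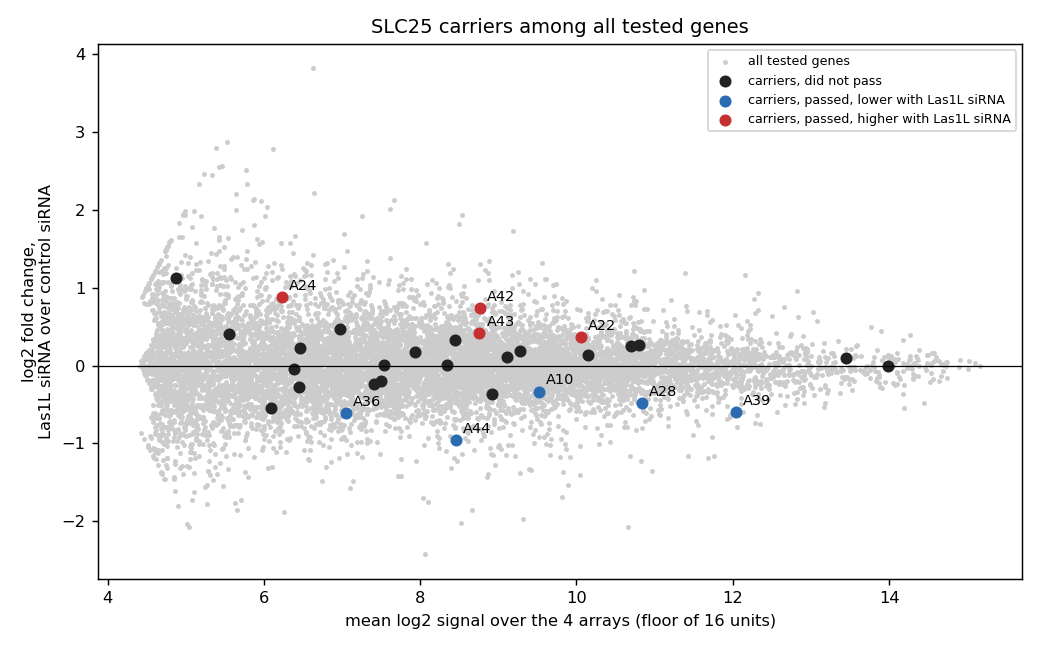
Log2 fold change, Las1L siRNA over control siRNA, against mean log2 signal of all tested genes (grey), with the 30 tested carriers as large points and the 9 that passed labelled without the SLC25 prefix. The 9 that passed lie between -0.95 and 0.88, inside the cloud of all genes. The highest carrier point is SLC25A45, whose controls were both under the background limit. The spread of all genes is wider at low signal.

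How many carriers passed depended on the fit. Limma without the trend passed 1 of 30 (SLC25A44) and 4.78% of all genes. In that fit 12 of the 30 carriers and 2995 of the 10466 genes had an unadjusted p under 0.05. Without Las1L siRNA #1, and likewise without Las1L siRNA #2, 0 carriers passed, where 7 and 10 had an unadjusted p under 0.05 in the limma trend fit. Over all genes 1% and 0.64% passed on those arrays, and 2358 and 2232 had an unadjusted p under 0.05. Without control replicate 1, SLC25A24, SLC25A22, SLC25A43 and SLC25A36 did not pass, at limma adjusted p of 0.079, 0.115, 0.063 and 0.263, and SLC25A13 did. Without control replicate 2, SLC25A10 did not pass and SLC25A23 did.

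**Figure D5:**
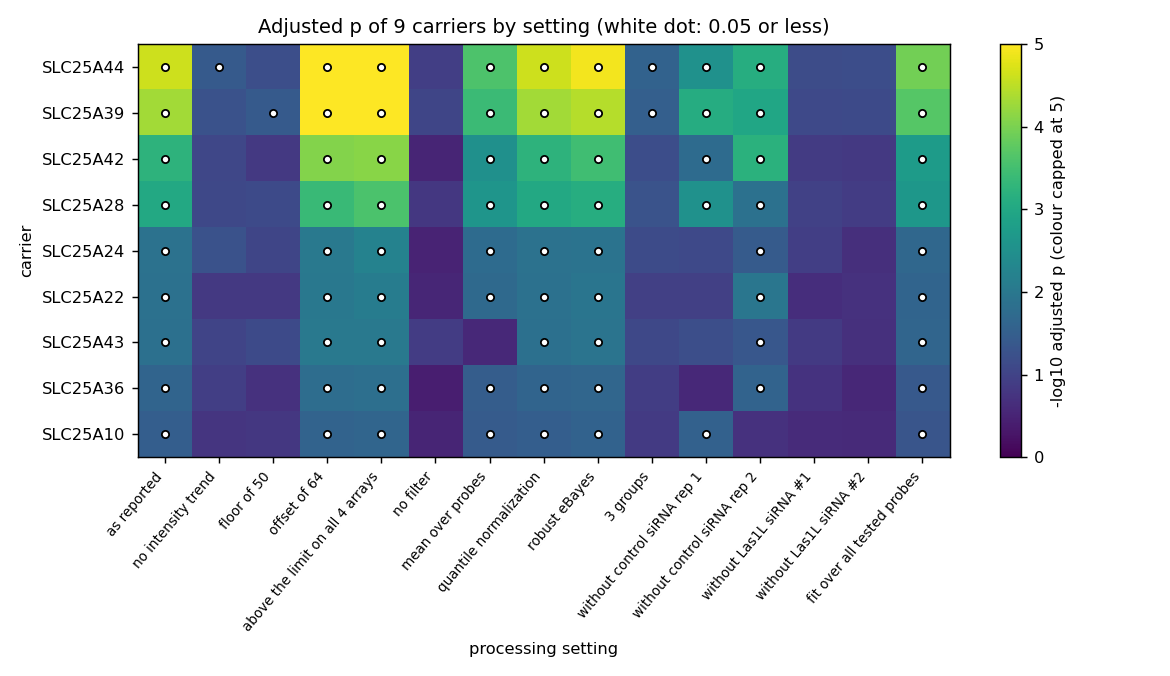
Adjusted p of the 9 carriers that passed (rows) under each processing setting (columns), as −log10 with the colour capped at 5 and a white dot at 0.05 or less. SLC25A44 and SLC25A39 pass in 10 of 14 alternatives and SLC25A43 in 6. These counts include quantile normalization, which nearly repeats the reported fit.

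The route that inserts carriers into the inner membrane was read from a list of 16 genes, of which 15 were tested. Of these 2 rose and 1 fell, against 22.1% of all tested genes in either direction. TOMM40, the outer membrane pore, fell (log2 fold change -0.41, adjusted p = 0.0019). TOMM5, a small subunit at that pore, rose (0.33, adjusted p = 0.0142), as did TIMM8B, a chaperone of the intermembrane space (0.47, adjusted p = 0.0460, all in the limma trend fit). Without the trend none of these 3 passed, at limma adjusted p of 0.105, 0.159 and 0.114. TIMM22, the channel that inserts carriers, had 764.4 and 746.7 units with Las1L siRNA, against 700.4 and 815.8 with control siRNA. The median log2 fold change of the list was 0.01.

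Among 14 tested genes of a list of further transport proteins of mitochondrial membranes, which holds the carrier relatives MTCH1 and MTCH2, 1 passed, against 22.1% of all tested genes. ABCB10, an inner membrane transporter linked to heme synthesis that is known to bind mitoferrin-1 in mouse cells, had 218.9 and 215.2 units with Las1L siRNA #1 and #2, against 420.6 and 390.3 with control siRNA. It fell 1.87-fold (log2 fold change -0.90, SE 0.13, adjusted p = 6.1e-05 in limma with the trend and 0.0353 without it). The heme enzymes ALAS1 and FECH had log2 fold changes of 0.03 and -0.05 and did not pass. The pyruvate carrier subunits MPC1 and MPC2 had log2 fold changes of -0.06 and 0.08, and the outer membrane channels VDAC1 and VDAC3 had -0.17 and -0.01; none of these passed.

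Of 14 tested enzymes that make or use carried substrates, 2 rose and 3 fell, where 11.3% of all tested genes rose and 10.8% fell. CS, the citrate synthase, fell (log2 fold change -0.49, adjusted p = 4.7e-04), as did MTHFD2 (-0.45, adjusted p = 0.0015) and SHMT2 (-0.29, adjusted p = 0.0213), enzymes of mitochondrial folate metabolism. OAT, which uses ornithine, rose (0.46, adjusted p = 0.0016), as did ALDH18A1, an enzyme of proline synthesis (0.33, adjusted p = 0.0204, all in the limma trend fit). Without the trend none of these 5 passed, at limma adjusted p between 0.083 and 0.172. The shuttle enzymes GOT1, GOT2, MDH1 and MDH2 lay between -0.11 and 0.12 and did not pass.

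The 14 carriers that could not be tested had signals between -27.5 and 34 units. Of these, 13 were under the background limit on every array, and SLC25A48, a choline carrier, was above it on 1 array, with 34 and 23.8 units with Las1L siRNA #1 and #2, against 8.5 and 24 with control siRNA. The folate carrier SLC25A32, the second pyrimidine nucleotide carrier SLC25A33, the ornithine carrier SLC25A2, the glutamate carrier SLC25A18, the NAD carrier SLC25A52 and the ATP-Mg/phosphate carrier SLC25A41 were among the 13. So were SLC25A27 and SLC25A30, relatives of the uncoupling proteins, and SLC25A34, SLC25A35, SLC25A47 and SLC25A53. A probe under the limit does not show that a transcript is absent.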

How the data were processed

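Signals came from 4 Illumina HumanHT-12 v4 arrays. The deposited intensity values are linear, and GenomeStudio made them per the submitters' processing notes. How its background and normalization were set, and its version, is not given in the sources used here. They go below 0, and each array has a median of 14.9 units and nearly the same sorted values, as after background subtraction and quantile normalization. A second table was not used because its 8 value columns match no sample's labels.

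The background limit, 28.1 units, is the one-sided 0.05 point of the noise, 17.1 units, read from values below 0. Signals below a floor of 16 were raised to it before the log2 step. Probe names came from a 2016 platform annotation, updated through RefSeq for GRCh38.p14. Of 47323 probes 30113 had 1 symbol, 8 several and 17202 none, and 30074 were matched in RefSeq. The brightest tested probe stood for a gene. Some family genes are not reported here. Limma 3.58.1 in R 4.3.3 (lmFit, eBayes with an intensity trend, two-sided, Benjamini-Hochberg over 10466 genes) compared 2 arrays with 2, and the script was tested on simulated data. Arrays correlated at 0.989 (Las1L), 0.988 (control) and 0.974 to 0.975 across groups. The number of arrays limits the precision. An "at least" fold sets the dim group at the higher of its own signal and the limit.

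Promoter windows are RefSeq's (GRCh38.p14). Of 44 carriers 37 had one.

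Members, lists, the trend fit and the genes named (all carriers that passed, the ADP/ATP and phosphate carriers, the 3 largest of the rest, listed genes that passed) were chosen with earlier results of these data known. Other carriers are named to account for each, and listed genes that did not pass were picked with their values seen. Alternatives covered the trend, floor, offset, filter, probes, normalization, eBayes, groups and arrays.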

Additional observations from a re-analysis of the deposited data

How the results depend on the processing

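The 9 carriers that passed kept their direction in all 14 alternatives, which was largely fixed in advance. Most alternatives left their log2 fold changes as they were, and groups that do not overlap keep their sign without 1 array. All 9 passed with an offset of 64, above the limit on all 4 arrays and with robust eBayes. They also passed in the fit over all tested probes, an alternative chosen after seeing the data. Quantile normalization passed the same 9, but it nearly repeats the reported fit because the deposited values already looked normalized. The count of carriers that rose, 4, became 0 with no intensity trend, 0 at a floor of 50, 0 without a filter and 0 in the 3-group fit, and the count that fell, 5, became 1, 1, 0 and 2 in the same settings. Without 1 array they ranged from 0 to 5 and from 0 to 4. The count over all genes, 2313, became 500, 253, 0 and 670 in those 4 settings and ranged from 67 to 1789 without 1 array. With no filter, 9 carriers and 2932 genes had an unadjusted p under 0.05 in limma. The carriers' median of 0.10 was 0.010 at a floor of 50, 0 without a filter and 0.0010 for the mean over probes, and lay between -0.010 and 0.11 on 3 arrays. LAS1L stayed at -2.02 but did not pass with a floor of 50 (adjusted p = 0.0604) or no filter (adjusted p = 0.121). SLC25A3 was -0.12 with the mean over probes, and SLC25A5, near 0 throughout, ranged from -0.021 without control replicate 2 to 0.019 without control replicate 1, and was 0.0030 when Las1L siRNA #2 was left out. The cause of these losses was not tested. Among the other carriers, SLC25A25 passed in 3 alternatives, and SLC25A4, SLC25A13 and SLC25A23 passed in 1 each. Where 1 array is left, it is assumed to vary like the other group. No paired analysis was possible because the labels number the control arrays as replicates and the Las1L arrays by siRNA, so the groups share no replicate pairs.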

Other observations

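The uncoupling proteins UCP1, UCP2 and UCP3 belong to the same carrier family under other symbols, and their brightest probes gave little signal. UCP3 was above the background limit on the array of Las1L siRNA #1 alone, with 31.9 and 13 units with Las1L siRNA #1 and #2, against 12 and 18.2 with control siRNA. UCP2 had 14.7 and 8.8 units with Las1L siRNA, against 0.3 and -11.2 with control siRNA, all under the limit. MTCH1 and MTCH2, outer membrane relatives of the carriers, had log2 fold changes of 0.09 and 0.22 with overlapping groups. The antisense transcript SLC25A21-AS1, which shares the name of a carrier, was under the limit at both of its probes on every array. The pseudogene SLC25A51P4 was above the limit on all 4 arrays, with 29 and 32.6 units with Las1L siRNA, against 37.2 and 33 with control siRNA.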
